A study of Mus musculus with 797 samples.

Results

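The synaptic vesicle and release machinery was followed here as 48 genes of the mouse, chosen by name for their place in vesicle priming, calcium sensing, membrane fusion and the vesicle membrane, out of 32285 gene rows. All 48 had a row in the count table. The rule that names them uses no level, but the list was chosen with earlier results of these data known. The members were 13 synaptotagmins, the fusion genes Snap25, Stx1a, Vamp1, Vamp2, Napb and Nsf, the syntaxin partners Stxbp5, Stxbp5l and Stxbp6, the complexins Cplx1 to Cplx3, the synapsins Syn1 to Syn3, the vesicle glycoproteins Sv2a to Sv2c, Rab3a to Rab3c, Rims1 to Rims4, Unc13a to Unc13c, the scaffolds Bsn and Pclo, the vesicle membrane genes Syp, Synpr, Sypl and Syngr1, and Doc2b. RNA was read in 797 single nuclei of C57Bl/6J mice, 1 nucleus per library, each labelled striatum. Every mouse had been given an adeno-associated virus in the capsid PHP.eB, which crosses the blood-brain barrier, at 5e11 vector genomes as a young adult. Nuclei were sorted 3 to 4 weeks later by the yellow fluorescence of H2B-SYFP2, a histone-linked reporter that stays in the nucleus. The 20 vector labels of 39 or 40 nuclei each were AiE0078h, AiE0140h, AiE0387m, AiE0390m, AiE0391h, AiE0401h, AiE0410m, AiE0445h_3xC2, AiE0447h, AiE0450h, AiE0452h, AiE0475m, AiE0600m, AiE0682h, AiE0743m_3xC2 and AiE0779m, which name enhancers, and CMV, hSyn1, hI56i and DLX2.0. No group went without a vector, and a vector decides which nuclei reach the sort, so each label holds its own mixture of cell types.

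A synaptic vesicle docks at the active zone of a presynaptic terminal, is primed there, and fuses with the plasma membrane when calcium enters. Vamp proteins on the vesicle and the products of Stx1a and Snap25 on the plasma membrane zip together to drive fusion, synaptotagmins such as Syt1 and Syt2 sense the calcium, complexins act on the assembled complex, and Nsf with its adaptor Napb takes the complex apart again. Glutamatergic and GABAergic neurons share this core, while many of its proteins come as paralogs that neuron types use in different mixtures.

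Of the 797 nuclei, 781 with at least 50000 gene reads and 1000 genes were kept, with 50565 to 666436 reads each. A nucleus counted as glutamatergic where Slc17a7, which loads glutamate into the vesicles of cortical excitatory neurons, reached 10 counts per 1e6 gene reads (CPM) and the sum of Gad1 and Gad2, the enzymes that make GABA, did not. The reverse made it GABAergic. This gave 385 glutamatergic and 310 GABAergic nuclei, 50 that met both limits and 36 that met neither. Median depths were close, at 279379 and 318172 reads and 2679 and 3016.5 genes. Of the markers of spiny projection neurons, the main neurons of the striatum, Adora2a and Isl1 were read in 0 nuclei, Drd2 in 5, Drd1 in 47, Ppp1r1b in 77 and Rgs9 in 89. The cortical gene Neurod6 was read in 203. In both classes the summed astrocyte, oligodendrocyte, microglial and vascular markers each had a median of 0 CPM. Oligodendrocyte markers were the most often read of these, with 215 of 385 glutamatergic and 206 of 310 GABAergic nuclei free of them. Mbp was read in 24.7% and 17.7% of the nuclei of the 2 classes and Mobp in 15.3% and 6.13%, with summed levels of up to 4619 and 1642 CPM for the list, and their part in the class differences was not tested. The library names carried 3 prefixes, called A, B and C here, of 516, 178 and 87 kept nuclei. Prefix B stood apart. Its mean share of mitochondrial reads was 1.17%, against 0.0161% in A and 0.0144% in C, and all 78 nuclei with more than 1% were in it. The prefixes shared 205 index pairs, but such pairs of nuclei were about as alike as other pairs (mean correlation 0.0869 against 0.0914 for A with B, and 0.114 against 0.103 for A with C), and 0 nuclei held identical counts. The labels name no animal, so nuclei are not biological replicates: differences are given as descriptions with no p-value, a spread is the SD over nuclei, and an interval of a share of nuclei is an exact Clopper-Pearson 95% interval that covers counting error only.

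Members ranged from genes read in nearly every nucleus to genes read in a handful. Snap25 was read in 98.1% of the 781 nuclei and Syt1, the main calcium sensor of fast release, in 97.7%, followed by Rims2 (90.9%), Syt11 (86.7%) and Syp (76.8%). At the other end stood Syt9 (0.64%), Doc2b (2.56%), Cplx3 (3.59%), Syt10 (4.35%) and Syt6 (5.38%). Altogether 17 members were read in at least 50% of nuclei. A level is the mean of log2(CPM + 1) over nuclei, which follows the share of nuclei with a read as well as the amount. A difference in level is therefore not the log2 ratio of summed reads and can be larger or smaller than it. Levels are compared between groups of nuclei for 1 gene, not between genes, because the gene length that was counted is unknown. Genes read in at least 10% of the nuclei of the 2 classes counted as tested: 39 of the 48 members and 9168 genes in all. Syt6, Syt9, Syt10, Syt12, Cplx3, Syn3, Sv2c, Unc13c and Doc2b fell below that limit. A difference is the glutamatergic minus the GABAergic level and was called where it passed 1 log2 unit in either direction.

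The 2 classes differed in many members, in both directions. Of the 39 tested members 20 were called (51.3%), while 16.9% of all tested genes were. Because the members were chosen with earlier results of these data known, these shares are a description and no test of the group. Glutamatergic nuclei were higher in 9 members, beside 7.17% of all tested genes: Sv2b, Stx1a, Syt7, Syt5, Unc13b, Stxbp5l, Syt4, Bsn and Cplx2. GABAergic nuclei were higher in 11, beside 9.71% of all tested genes: Rab3b, Cplx1, Synpr, Sv2a, Rab3c, Pclo, Syt3, Vamp1, Syt2, Nsf and Rab3a. The median difference was 0.24 over the tested members and -0.13 over all tested genes, and the median absolute difference 1.04 and 0.37. All 20 differences had the same sign in each of the 3 prefixes, as had 96.0% of all called genes. Several calls depended on the setting: Bsn, Cplx2, Nsf, Pclo and Syt2 were not called without prefix A, Cplx2 and Rab3a not without prefix B, Bsn, Cplx2, Nsf, Pclo, Rab3a, Stxbp5l and Syt3 not from summed reads, and Bsn, Cplx2, Nsf, Pclo, Rab3a, Syt2, Syt3 and Vamp1 not with a pseudocount of 10. The calls of Sv2b, Stx1a, Syt7, Syt5, Unc13b, Syt4, Rab3b, Cplx1, Synpr, Sv2a and Rab3c were kept in all of these settings. Values just past the limit were Cplx2 at 1.04 and Rab3a at -1.07, and just short of it Rims2 at 0.99 and Napb at -0.97.

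Shown here are the 250 bases before the RefSeq transcription start (build GRCm38.p6, printed along the gene's strand) of the 2 members furthest apart in each direction: Rab3b at chr4:108878820-108879069 on the plus strand and Cplx1 at chr5:108550028-108550277 on the minus strand, higher in GABAergic nuclei, then Sv2b at chr7:75309263-75309512 on the minus strand and Stx1a at chr5:135023232-135023481 on the plus strand, higher in glutamatergic nuclei. Capitals mark the GC box GGGCGG or its reverse complement, the core of the site bound by Sp-family factors.
Rab3b: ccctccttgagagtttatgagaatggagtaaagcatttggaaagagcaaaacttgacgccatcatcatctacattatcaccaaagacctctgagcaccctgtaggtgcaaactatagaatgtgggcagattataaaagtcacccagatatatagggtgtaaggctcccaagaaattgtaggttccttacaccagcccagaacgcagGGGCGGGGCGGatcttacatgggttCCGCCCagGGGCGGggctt
Cplx1: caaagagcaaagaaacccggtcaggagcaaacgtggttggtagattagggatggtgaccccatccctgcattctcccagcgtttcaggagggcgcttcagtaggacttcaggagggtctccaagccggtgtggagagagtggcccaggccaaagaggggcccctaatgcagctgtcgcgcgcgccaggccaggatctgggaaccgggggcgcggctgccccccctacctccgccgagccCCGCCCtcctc
Sv2b: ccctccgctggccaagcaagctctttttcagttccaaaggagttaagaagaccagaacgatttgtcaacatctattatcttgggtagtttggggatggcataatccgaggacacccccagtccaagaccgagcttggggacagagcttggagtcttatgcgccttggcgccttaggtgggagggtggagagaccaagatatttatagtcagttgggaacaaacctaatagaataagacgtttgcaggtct
Stx1a: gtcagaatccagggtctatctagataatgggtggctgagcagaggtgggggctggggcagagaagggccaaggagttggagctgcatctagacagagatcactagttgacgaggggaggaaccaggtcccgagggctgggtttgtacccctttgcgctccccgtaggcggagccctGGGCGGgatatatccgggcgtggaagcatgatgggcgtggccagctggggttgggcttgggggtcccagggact

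The table held a window for 36 of the 48 members. A GC box on either strand lay in 31 of the 47 member windows (66.0%) and in 32.7% of all 32851 windows of the same length, which include those of other kinds of gene. The Rab3b window held 4 GC boxes, the first pair overlapping, those of Cplx1 and Stx1a 1 each, and that of Sv2b 0; 4 start sites are listed for Sv2b, and the window shown is that of the start that matches the annotated start of the gene. The homeobox core TAATTA, which lies in 4.84% of all windows, the E-box form CAGATG, in 14.4%, and the cAMP response element TGACGTCA, in 1.55%, were in none of the 4 printed windows. They lay in 1, 3 and 1 of the 47 member windows. A match of letters is a description of the window and does not show binding.

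The SV2 glycoproteins, multi-pass membrane proteins of the vesicle, were split between the classes. Sv2b (ENSMUSG00000053025, chromosome 7, 75114894 to 75309262 on the minus strand in GENCODE M21, build mm10) had a level of 5.17 ± 4.27 in glutamatergic and 0.21 ± 1.23 in GABAergic nuclei, a difference of 4.96. It ranged over glutamatergic nuclei from 0.00 to 10.95 with a median of 6.64, and over GABAergic nuclei from 0.00 to 9.42 with a median of 0.00, so single nuclei overlapped. Its share of nuclei with a read was 63.4% (interval 58.3% to 68.2%) against 3.55% (1.78% to 6.26%), and 59.5% against 2.58% after every nucleus was thinned to 50000 reads. Over the vector labels with at least 10 nuclei of a class, 14 for glutamatergic and 13 for GABAergic nuclei, the glutamatergic label means ran from 2.74 (AiE0447h) through a median of 5.11 to 7.49 (hSyn1). The GABAergic label means ran from 0.00 through 0.13 to 0.97 (AiE0743m_3xC2), below every glutamatergic one. Sv2a leaned the other way, at 3.35 ± 3.90 in glutamatergic and 5.69 ± 3.83 in GABAergic nuclei (difference -2.34). Read nucleus by nucleus, 31.7% of glutamatergic nuclei had reads of both genes and 31.7% of Sv2b alone, whereas 69.4% of GABAergic nuclei had Sv2a alone and 3.23% both. Sv2c, too rare to be tested, was read in 3.38% and 12.3%.

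Rab3 proteins are small GTPases of the vesicle that bind RIM at the active zone. Rab3b (ENSMUSG00000003411, chromosome 4, 108879063 to 108943324 on the plus strand) was the member furthest apart: its level was 0.76 ± 2.29 in glutamatergic and 6.06 ± 4.29 in GABAergic nuclei, a difference of -5.29. The GABAergic label means, 3.64 (CMV) to 9.94 (AiE0391h) with a median of 6.08, all lay above the glutamatergic ones, 0.00 to 1.5 with a median of 0.75. It was read in 69.0% of GABAergic and 10.6% of glutamatergic nuclei, and in 68.4% and 9.35% after thinning. Rab3c was 2.91 ± 3.93 against 5.15 ± 4.12 (-2.24). Rab3a, the most widely read of the 3, was 6.15 ± 4.23 against 7.22 ± 3.71 (-1.07), and its within-prefix values were -1.06, -1.60 and -0.32 in A, B and C. Of GABAergic nuclei 56.5% had reads of both Rab3a and Rab3b, and of glutamatergic nuclei 8.05%, while 61.6% of glutamatergic nuclei had Rab3a alone.

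Among the fusion proteins the plasma membrane syntaxin differed most. Stx1a (ENSMUSG00000007207, chromosome 5, 135023482 to 135051100 on the plus strand) was 5.14 ± 3.98 in glutamatergic and 1.06 ± 2.58 in GABAergic nuclei, a difference of 4.08, and was read in 66.2% and 15.5% (63.1% and 13.9% after thinning). Its glutamatergic label means, 3.79 to 6.93 with a median of 5.09, did not overlap the GABAergic ones, 0.41 to 3.28 with a median of 0.84. Snap25 was read in 100% and 99.7% of the nuclei of the 2 classes and had a narrow spread, 11.54 ± 0.81 against 10.88 ± 1.16 (0.66). Vamp2, the main vesicle SNARE of the forebrain, was 5.93 ± 3.99 against 5.43 ± 4.06 (0.50), not called, while its paralog Vamp1 was 1.28 ± 2.81 against 2.57 ± 3.75 (-1.28). Vamp1 was higher in GABAergic nuclei in 8 of the 12 labels with at least 5 nuclei of both classes. Most GABAergic nuclei with reads of Vamp1 were of the Pvalb subclass described below, and its level in Adarb2 nuclei lay below the glutamatergic one. Nsf, the ATPase that recycles SNARE complexes, was 5.57 ± 4.09 against 6.71 ± 3.52 (-1.14), with -1.61, -0.17 and -1.92 in prefixes A, B and C, and its adaptor Napb was 3.56 ± 4.17 against 4.53 ± 4.09 (-0.97). The tomosyn gene Stxbp5l, whose protein competes with Vamp for syntaxin, was 5.96 ± 3.74 against 3.99 ± 3.81 (1.97). Its relatives Stxbp5 (-0.12) and Stxbp6 (-0.19) were not called, and Stxbp5 changed sign between prefixes, at 0.44, -1.21 and -2.09.

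Of the 13 synaptotagmins 9 were tested and 5 called. Syt7, a slow high-affinity calcium sensor (ENSMUSG00000024743, chromosome 19, 10389090 to 10453180 on the plus strand), was 5.44 ± 3.43 in glutamatergic and 2.25 ± 3.16 in GABAergic nuclei (3.18). Its label means did not overlap, 3.95 to 6.59 with a median of 5.49 against 1.25 to 3.82 with a median of 2.20. Syt5 was 5.38 ± 4.37 against 2.7 ± 4.03 (2.67) and Syt4, a synaptotagmin also found on dense-core vesicles, 6.30 ± 3.54 against 4.34 ± 3.76 (1.96). Both had overlapping label means, which for Syt5 ran from 4.03 to 7.13 against 0.22 to 6.23. In the subclasses described below, the Syt5 level of Sst nuclei was about that of Cux2 and Rorb nuclei together. That of Pvalb nuclei was lower. Higher in GABAergic nuclei were Syt3, 1.26 ± 2.85 against 2.57 ± 3.67 (-1.31), and the fast sensor Syt2, 0.19 ± 1.13 against 1.41 ± 2.82 (-1.22). Most GABAergic nuclei with reads of Syt2 were of the Pvalb subclass described below. Its place among the tested genes and its class call rest largely on those nuclei. Syt1, at 10.35 ± 1.04 against 9.87 ± 1.70 (0.48), Syt11 (-0.25), Syt13 (0.44) and Syt17 (0.24) were not called. Read in under 10% of these nuclei, Syt6, Syt9, Syt10 and Syt12 had differences of 0.43, 0.08, 0.51 and 0.33.

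Of the priming factors and active zone scaffolds, Unc13b, Bsn and Pclo were called. Among the Munc13 genes, whose proteins open syntaxin for priming, Unc13b was 3.86 ± 4.01 in glutamatergic and 1.19 ± 2.76 in GABAergic nuclei (2.67), higher in glutamatergic nuclei in 12 of the 12 labels with at least 5 nuclei of both classes. Unc13a was 4.27 ± 3.46 against 3.41 ± 3.44 (0.86), not called, and Unc13c, read in 9.60% of nuclei and so not tested, was 0.16 ± 1.10 against 1.60 ± 3.37 (-1.44). Of the RIM genes, scaffolds that tie vesicles and calcium channels to the release site, none was called: Rims1 0.36, Rims2 0.99, Rims3 0.88 and Rims4 -0.49. The giant scaffolds went opposite ways, Bassoon (Bsn) at 3.15 ± 3.81 against 1.92 ± 3.23 (1.24) and Piccolo (Pclo) at 4.93 ± 3.94 against 6.33 ± 3.47 (-1.40). Neither call held without prefix A.

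Complexins, small proteins that clamp and then promote SNARE-driven fusion, also went opposite ways. Cplx1 (ENSMUSG00000033615, chromosome 5, 108518554 to 108550024 on the minus strand) was 2.01 ± 3.52 in glutamatergic and 5.26 ± 4.42 in GABAergic nuclei (-3.25). Its label means overlapped at the edge, 0.28 to 3.32 against 2.91 to 9.32. Cplx2 was 2.31 ± 3.48 against 1.27 ± 2.84 (1.04), yet within prefixes A, B and C the difference was 0.97, 0.56 and 0.70, under the limit each time. Of GABAergic nuclei 46.1% had reads of Cplx1 alone and 5.16% of Cplx2 alone, against 11.7% and 19.2% of glutamatergic nuclei. Vesicle membrane proteins differed through Synpr (synaptoporin), 0.70 ± 2.35 against 3.72 ± 4.83 (-3.02), while its relatives Syp (-0.32), Sypl (0.59) and Syngr1 (-0.58) were not called. Most GABAergic nuclei with reads of Synpr were of the Sst subclass described below. The Synpr level of Pvalb nuclei lay below that of glutamatergic nuclei. Synapsins, which tether vesicles to each other and to actin, were not called either: Syn1 0.43 and Syn2 -0.91, with Syn3 untested.

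**Figure D1:**
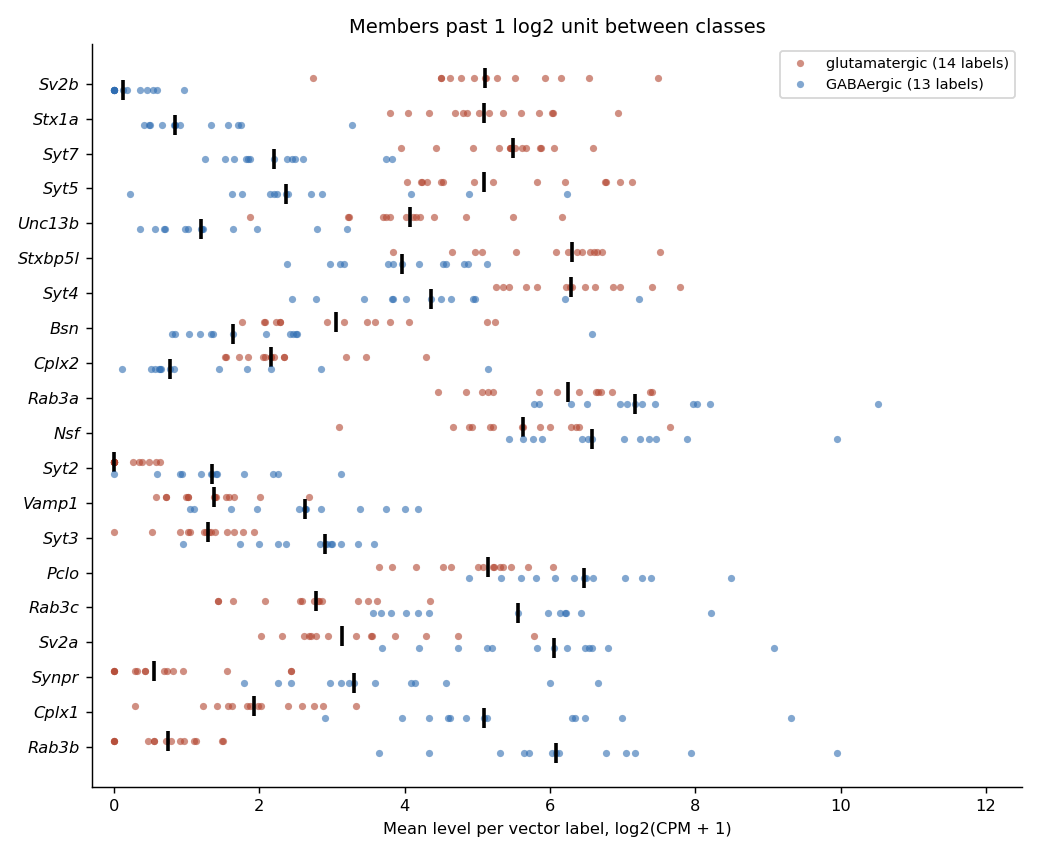
Mean level, log2(CPM + 1), of the 20 called members in each vector label with at least 10 nuclei of the class. Each red point is a glutamatergic label mean (14 labels), each blue point a GABAergic one (13 labels), and black ticks are the medians over labels; for Sv2b, Stx1a, Syt7 and Rab3b the red and blue points do not overlap.

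Label means of the 2 classes failed to overlap for 4 tested members, Sv2b, Stx1a, Syt7 and Rab3b, while this was so for 3.32% of all tested genes (1.77% with glutamatergic and 1.55% with GABAergic nuclei above). Of the 20 called members 7 had the same sign in all 12 labels with at least 5 nuclei of both classes. The same count over all called genes was not made, so this one does not set the members apart. The vector label AiE0391h touched many of the GABAergic means. Its 11 GABAergic nuclei were all of prefix B, 9 of them had over 1% mitochondrial reads, and they had the highest GABAergic label mean for 30 of the 39 tested members. This was not counted over all tested genes either, so it does not set the members apart. The 4 cytoplasmic genes Rplp0, Rps3, Eef1a1 and Actb had a mean level of 8.19 in them and 3.19 in the other GABAergic nuclei. The part of these quantities in the label means was not tested. Without this label Rab3a was no longer called, Rims3 was, and the counts were 10 and 10, beside 7.70% and 9.01% of all tested genes.

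**Figure D2:**
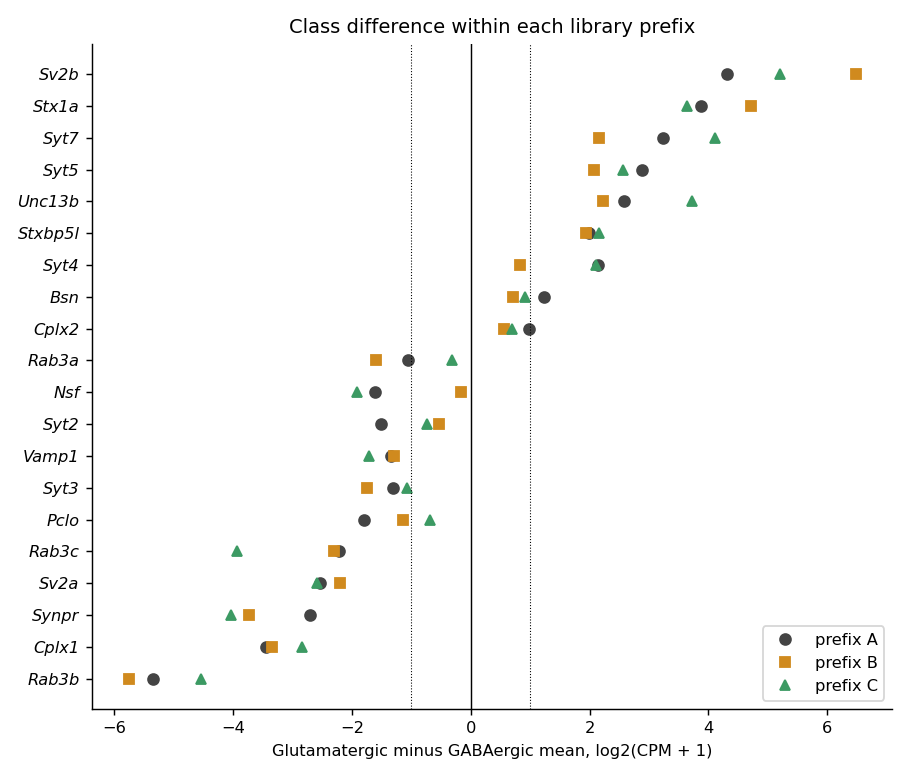
Difference in mean log2(CPM + 1), glutamatergic minus GABAergic, of the 20 called members within library prefixes A (black circles), B (orange squares) and C (green triangles). Dotted lines mark 1 log2 unit; every member keeps its side of 0 in all 3 prefixes, and Nsf in B (-0.17) and Rab3a in C (-0.32) lie closest to it.

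Within each class the nuclei were then split by subclass markers, each nucleus going to the highest of its class's 3 markers at 10 CPM or more. Cux2 marks upper-layer, Rorb middle-layer and Foxp2 deep-layer excitatory neurons of the cortex, and Pvalb, Sst and Adarb2 mark 3 broad families of interneurons. This gave 75 Cux2, 75 Rorb and 50 Foxp2 nuclei, 137 Pvalb, 104 Sst and 52 Adarb2 nuclei. A further 185 glutamatergic and 17 GABAergic nuclei had none of their markers. Each subclass was set against the other 2 of its class. Of the 56 subclass differences called, 8 had the opposite sign within at least 1 prefix: Napb in Cux2, Cplx2 in Rorb, Cplx2 and Nsf in Foxp2, Syn2 in Pvalb, Cplx1 in Sst, and Stxbp5l and Syp in Adarb2 nuclei.

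**Figure D3:**
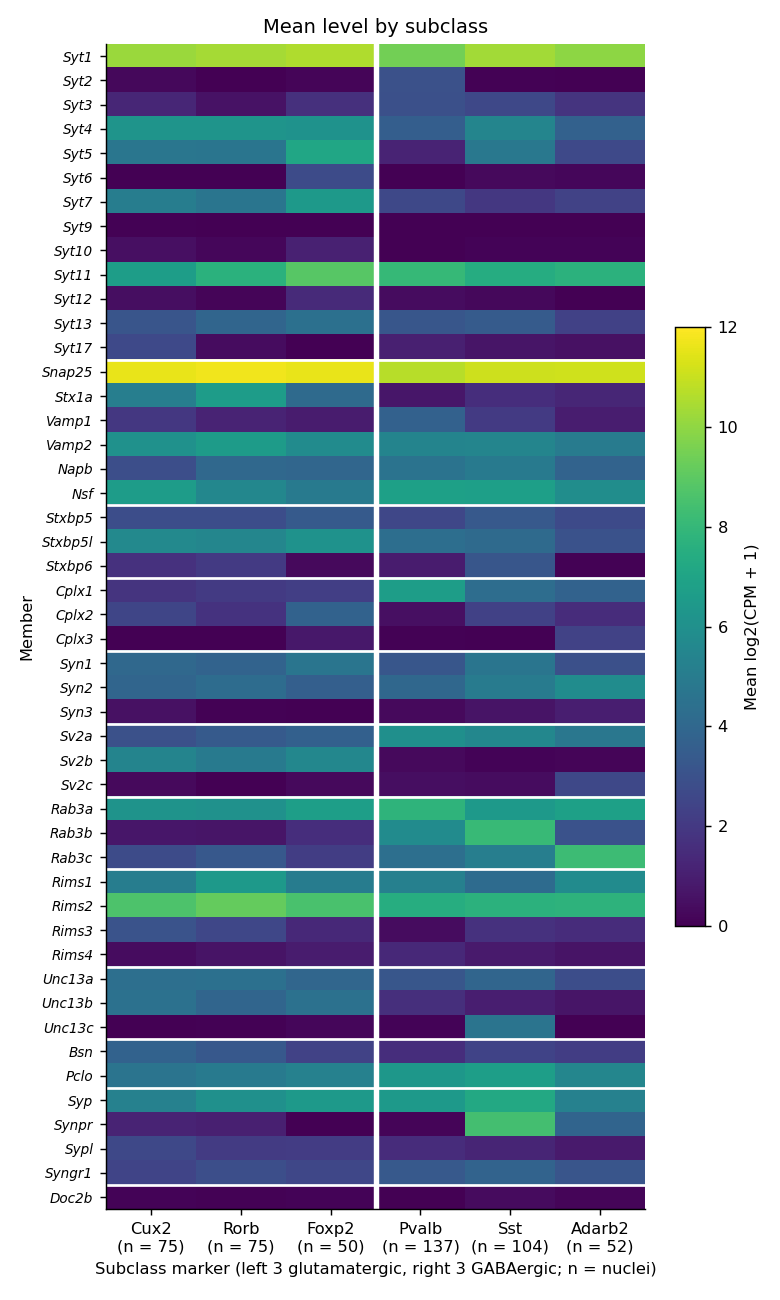
Mean level, log2(CPM + 1), of the 48 members (rows, grouped by family with white lines) in the 6 subclasses (columns, number of nuclei below). Snap25 and Syt1 are high in every column, and Sv2b and Stx1a are high on the left, Rab3b on the right.

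Cux2 and Rorb nuclei differed from the other excitatory nuclei in few members. In Cux2 nuclei 2 members were higher and 2 lower, beside 3.7% and 2.63% of all tested genes. Syt17 was 2.63 ± 3.73 in Cux2 and 0.25 ± 1.41 in the other nuclei (2.37), with 1.88, 3.36 and 3.02 in prefixes A, B and C, and Nsf was 6.64 ± 3.83 against 5.30 ± 4.18 (1.34). Lower were Syt11 (-1.5) and Napb (-1.13), the latter at -1.81, -0.25 and 1.82 in the 3 prefixes. In Rorb nuclei 2 were higher and 3 lower, beside 2.42% and 4.01%. Stx1a was 6.63 ± 3.59 against 4.76 ± 4.10 (1.87), a difference of 2.79 in prefix A but 0.58 in B and 0.04 in C, and Rims1 was 6.47 ± 2.81 against 5.07 ± 3.41 (1.40). Cplx2 (-1.23), Syt17 (-1.16) and Syt5 (-1.01) were lower. The counts for Cux2 and Rorb moved with several settings, given with the processing.

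In Foxp2 nuclei more members were past the limit, 4 of them synaptotagmins. Here 4 members were higher and 7 lower, beside 7.96% and 5.43% of all tested genes. Syt5 was 7.10 ± 4.07 in Foxp2 and 4.70 ± 4.36 in the other nuclei (2.40), Syt11 8.88 ± 2.79 against 7.17 ± 3.56 (1.71), Cplx2 3.76 ± 4.02 against 2.13 ± 3.38 (1.62) and Syt7 6.44 ± 3.31 against 4.87 ± 3.47 (1.57). Lowest relative to the rest were Stx1a, 4.16 ± 4.16 against 5.89 ± 3.88 (-1.73), Stxbp6 (-1.57) and Syt17 (-1.52), followed by Rims3, Bsn, Nsf and Synpr. Syt17 and Synpr were read in 0 of the 50 Foxp2 nuclei, a count that allows shares up to 7.11%. The untested Syt6 was read in 38% of Foxp2 nuclei (interval 24.7% to 52.8%) and in 0 of the 75 Cux2 and 0 of the 75 Rorb nuclei (up to 4.80% each), and its share in Foxp2 nuclei was 36.4%, 41.7% and 40% in prefixes A, B and C. The values for Sv2b hardly moved among the 3 subclasses, at 5.44 ± 4.27 in Cux2, 4.91 ± 4.54 in Rorb and 5.57 ± 4.22 in Foxp2.

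Each interneuron subclass had 12 members past the limit, against 11 in Foxp2, 5 in Rorb and 4 in Cux2 nuclei. More of all tested genes were past it too in Pvalb and Adarb2 nuclei than in any excitatory subclass, but fewer in Sst than in Foxp2 nuclei. Pvalb nuclei, of the family that holds the fast-spiking basket cells, were higher in 4 of the 39 tested members and lower in 8, beside 10.9% and 3.43% of all tested genes. The 4 higher members are about the share of all tested genes. Syt2 was 2.96 ± 3.47 in Pvalb and 0.05 ± 0.60 in the other nuclei (2.91) and was read in 45.3% of Pvalb nuclei, 0.96% of Sst and 0 of 52 Adarb2 nuclei (up to 6.85%). Nearly all of these nuclei carried the other fast sensor as well: 43.8% of Pvalb nuclei had reads of both Syt1 and Syt2 and 1.46% of Syt2 alone. Cplx1 was 6.67 ± 4.08 against 4.11 ± 4.36 (2.57), though 0.79 within prefix B, Vamp1 3.71 ± 4.03 against 1.66 ± 3.23 (2.04), and Rab3a 7.80 ± 3.17 against 6.61 ± 4.11 (1.19). Furthest below was Synpr, 0.17 ± 1.12 against 6.90 ± 4.67 (-6.72), then Syt5, 1.19 ± 2.91 against 4.08 ± 4.38 (-2.89), and Rab3c (-1.77), with Cplx2, Syt4, Rims3, Syn2 and Stxbp6 also lower.

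Sst nuclei were higher in 8 members and lower in 4, beside 4.46% and 4.97% of all tested genes. Synpr was 8.41 ± 3.67 in Sst and 1.19 ± 3.24 in the other nuclei (7.22), the furthest of any member in any subclass, with 7.21, 7.60 and 5.98 in prefixes A, B and C. It was read in 85.6% of Sst nuclei (interval 77.3% to 91.7%), 2.92% of Pvalb and 38.5% of Adarb2 nuclei. Syt5 was 4.80 ± 4.34 against 1.59 ± 3.35 (3.20) and Rab3b 8.09 ± 3.57 against 5.01 ± 4.24 (3.08). Also higher were Stxbp6 (2.51), Syt4 (1.86), Cplx2 (1.53), Syn1 (1.52) and Syp (1.07). Of these, Stxbp6, Cplx2 and Syn1 were 5.42, 3.87 and 2.92 in prefix B but 1.53, 0.64 and 0.63 in A. Leaving out nuclei over 1% mitochondrial reads kept 89 of the 104 Sst, 130 of the 137 Pvalb and 48 of the 52 Adarb2 nuclei. The part of the nuclei left out in these differences was not tested. Syt2 (-2.07), Cplx1 (-1.59), Rims1 (-1.17) and Rab3a (-1.04) were lower. The untested Unc13c, 4.63 ± 4.37 in Sst and 0.08 ± 0.73 in the other nuclei, was read in 54.8% of Sst nuclei (54.5%, 52.0% and 61.5% in prefixes A, B and C), 1.46% of Pvalb and 0 of 52 Adarb2 nuclei.

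Adarb2 nuclei were higher in 2 members and lower in 10, beside 2.91% and 15.8% of all tested genes, so genes in general also leaned to lower values there. Rab3c was 8.22 ± 2.93 in Adarb2 and 4.72 ± 4.04 in the other nuclei (3.50) and was read in 92.3% of them (interval 81.5% to 97.9%). Syn2 was 5.85 ± 4.10 against 4.43 ± 4.19 (1.41). Rab3b was 3.01 ± 4.09 against 6.77 ± 4.02 (-3.77), Vamp1 0.95 ± 2.7 against 2.98 ± 3.87 (-2.03) and Cplx1 3.76 ± 4.35 against 5.64 ± 4.36 (-1.89), with Stxbp6, Syt2, Syp, Stxbp5l, Sv2a, Syt13 and Pclo also lower. Of the untested members, Sv2c was read in 36.5% of Adarb2 nuclei against 8.03% of Pvalb and 6.73% of Sst, and Cplx3 in 26.9% against 0.73% and 0 of 104 (up to 3.48%). Among the interneuron subclasses the Rab3 paralogs each had their highest level in a different one: Rab3a in Pvalb, Rab3b in Sst and Rab3c in Adarb2. In Adarb2 nuclei 57.7% had Rab3c without Rab3b and 1.92% Rab3b without Rab3c, against 8.65% and 32.7% of Sst nuclei.

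**Figure D4:**
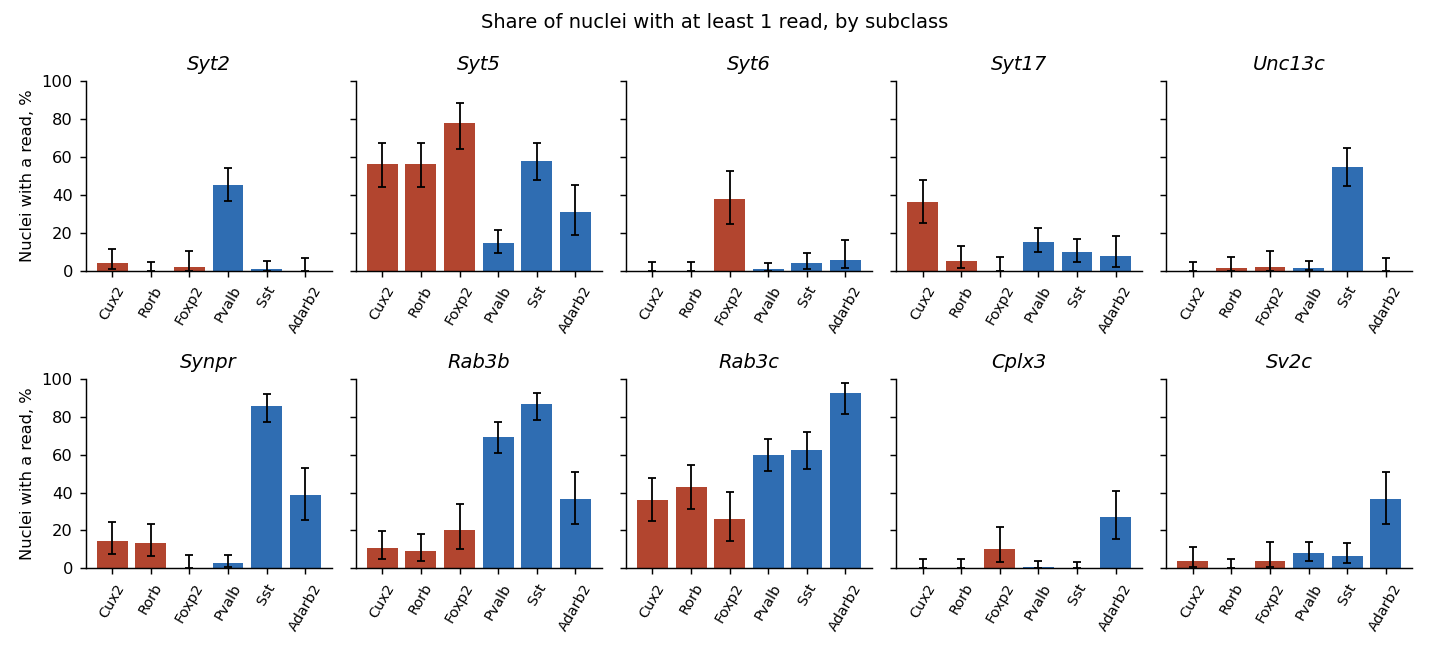
Share of nuclei with at least 1 read, in percent, of 10 members in the 3 glutamatergic (red) and 3 GABAergic (blue) subclasses; error bars are exact Clopper-Pearson 95% intervals, which cover counting error only. Syt2 stands up in Pvalb, Syt6 in Foxp2, Syt17 in Cux2, Synpr and Unc13c in Sst, and Rab3c, Cplx3 and Sv2c in Adarb2 nuclei.

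A list of 71 other genes of the release cycle, named for their function and also chosen with earlier results known, was set beside the members. Of these 70 were found and 56 tested, 9 were higher in glutamatergic nuclei (7.17% of all tested genes were) and 7 in GABAergic nuclei (9.71%). Together 28.6% were called, between the 51.3% of members and the 16.9% of all tested genes, and the median absolute difference was 0.63, beside 1.04 and 0.37. Among those furthest in the glutamatergic direction were the active zone scaffold Erc2, 7.58 ± 3.37 against 4.74 ± 3.91 (2.83), the scaffold Lin7b (1.94), the Munc18 relative Stxbp2 (1.73) and the dense-core vesicle primer Cadps2 (1.65). Furthest in the GABAergic direction were the Rab GTPase Rab27b, 1.26 ± 2.92 against 3.65 ± 4.14 (-2.39), the dynamin Dnm3 (-1.75), the vesicle membrane protein Scamp5 (-1.63), the endocytic scaffold Itsn1 (-1.38) and the liprin Ppfia4 (-1.29).

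Within a class the members also varied between vector labels. The range of label means had a median of 2.95 log2 units over the tested members in glutamatergic nuclei and 4.06 in GABAergic nuclei, and 2.24 and 2.74 over all tested genes. In glutamatergic nuclei the widest were Sv2b (4.75), Napb (4.66), Nsf (4.55), Syngr1 (4.31) and Unc13b (4.29). Within prefix A these ranges were 4.45, 3.69, 2.81, 1.87 and 4.24. In GABAergic nuclei the widest were Napb (6.70), Syn1 (6.48), Cplx1 (6.41), Rab3b (6.30) and Syt5 (6.01), and within prefix A they were 2.76, 2.62, 4.17, 3.34 and 4.38. The full ranges cover 14 glutamatergic and 13 GABAergic labels, those within prefix A 11 and 10. A range over fewer labels tends to be narrower. For 30 of the 39 tested members the highest GABAergic label mean was that of AiE0391h, all of prefix B, a count not made over all tested genes. Syn1, whose human promoter gives the hSyn1 vector its name, was 4.95 ± 3.94 in the 19 glutamatergic nuclei of that vector, the 4th highest of 14 labels, and 4.24 ± 4.31 in its 17 GABAergic nuclei, the 3rd highest of 13.

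Many members were higher in the nuclei of prefix B. In glutamatergic nuclei 21 of the 39 tested members were more than 1 log2 unit higher in prefix B than in A and 0 lower, beside 34.7% and 0.327% of all tested genes, and the median member difference was 1.22 against 0.73 over all tested genes. In GABAergic nuclei 25 were higher and 0 lower, beside 34.2% and 1.06%, and the medians were 1.37 and 0.63. Nsf (3.45), Napb (2.82) and Syngr1 (2.81) were furthest in glutamatergic, Cplx2 (2.99), Vamp2 (2.92) and Bsn (2.72) in GABAergic nuclei. Prefix C differed from A in few members: 1 higher and 2 lower in glutamatergic nuclei, beside 2.39% and 2.78%, and 2 higher and 0 lower in GABAergic nuclei, beside 3.1% and 6.02%. The prefixes hold different mixtures of vector labels and their meaning is not given in the labels, so prefix and label cannot be fully told apart.

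Inside prefix B the members were higher in the nuclei with more mitochondrial reads. The 34 glutamatergic nuclei over 1% had reads of a median of 34 members and a median summed member level of 23662 CPM, and the 64 at or below 1% of 19 members and 11107 CPM. In GABAergic nuclei the medians were 33 members and 24819 CPM in 26 nuclei over 1%, and 19 members and 8800 CPM in 32 nuclei at or below it. After thinning, the nuclei over 1% had reads of a median of 32 members against 18 in glutamatergic, and 31 against 18 in GABAergic nuclei. The same nuclei had more genes read after thinning, a median of 5462 against 2400 in glutamatergic and 4869 against 2680 in GABAergic nuclei, and a higher mean level of the 4 cytoplasmic genes, 7.78 against 2.56 and 7.63 against 3.13. Whether these nuclei kept cytoplasm, or differed otherwise, was not tested. Without all nuclei over 1%, the 20 called members were called again, together with Rims2, Napb and Syn2. Of all tested genes 7.15% were then higher in glutamatergic and 11.5% in GABAergic nuclei.

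Per nucleus, both classes had reads of a median of 19 of the 48 members, and of 18 after thinning. The members summed to a median of 11332 CPM in glutamatergic nuclei (5485 to 36699) and 9609 CPM in GABAergic nuclei (3650.0 to 32499), so the ranges overlapped almost fully. By subclass the median ran from 8376 CPM in Pvalb through 10366 in Adarb2, 11088 in Cux2, 11157 in Sst and 11698 in Rorb to 12678 in Foxp2 nuclei. Snap25 and Syt1 alone gave 3563 and 1673 CPM of the pooled glutamatergic reads and 2467 and 1537 CPM of the pooled GABAergic reads.

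**Figure D5:**
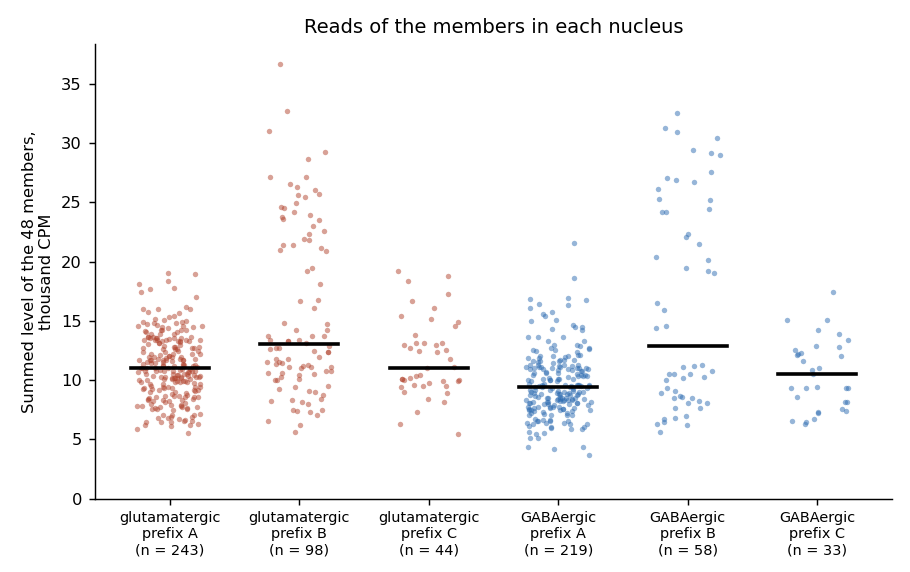
Summed level of the 48 members in each nucleus, in units of 1000 CPM, by class and library prefix (number of nuclei below each group); points are nuclei and black lines medians. The highest nuclei of both classes are in prefix B.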

How the data were processed

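Each library was made from 1 sorted nucleus with SMART-Seq v4 and Nextera XT, per the labels' protocols. What the authors deposited are raw read counts for every gene in every nucleus. There are no molecular identifiers: PCR copies count separately, and intervals cover counting error only. STAR 2.7.2a and mm10 are named in the submitters' processing notes. Which counter, annotation, strand setting and handling of introns were used was not given in the sources used here; introns bear on long genes, and overlapping genes cannot be told apart. Library names matched 797 of 2501 columns, and the remaining 1704 stayed unused. Ensembl identifiers gave 32158 of 32285 rows a symbol, and the unnamed rows held 0.0931% of reads.

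Gene reads per nucleus ran from 8712 to 666436 (median 290674). Values are log2(CPM + 1), with a pseudocount of 1 (Python 3.11.15, numpy 2.4.6, pandas 2.3.3, scipy 1.17.1). Nuclei under 50000 reads or 1000 genes, 16 in all, were left out, and doublets were not called. The calculations were tested on simulated data. Members and lists were chosen with earlier results of these data known. Described with values are members past 1 log2 unit between classes and their paralogs, the 3 furthest each way per subclass, the 5 most and least often read, the 5 widest over labels per class and the 5 other release genes furthest each way, of which 1 is not reported here. Snap25 and Vamp2 between classes and the untested Syt6, Unc13c, Sv2c and Cplx3 in subclasses were added after their values were seen. Alternatives changed the pseudocount, filters, depth, weighting, centring, class limits, prefixes and 1 vector label.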

Additional observations from a re-analysis of the deposited data

How the results depend on the processing

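No paired analysis was possible because the results come from no test and the replicate number in a title only names a nucleus; differences within vector labels and prefixes are given with the results. Under the alternatives tried, no called class or subclass difference reversed, although 8 of 56 called subclass differences had the opposite sign within a single prefix. With a pseudocount of 10, the members higher in GABAergic nuclei went from 11 to 5 and those higher in glutamatergic nuclei from 9 to 7. The shares of all tested genes went from 9.71% to 3.34% and from 7.17% to 3.36%. The members past 1 log2 unit went to 2 in Cux2, 1 in Rorb, 4 in Foxp2, 6 in Pvalb, 7 in Sst and 5 in Adarb2, from 4, 5, 11, 12, 12 and 12. For the subclass counts under the alternatives, shares of all tested genes were not computed. The Cux2 count was also 10 with class and subclass limits of 50 CPM, 9 without library prefix C, and 7 after thinning, without nuclei over 1% mitochondrial reads, or with nuclei that had exactly 1 subclass marker. The Rorb count was also 9 without library prefix A, 8 without prefix B and 11 with exactly 1 marker. Without prefix A, the glutamatergic medians were 12499 CPM summed and 21.5 members read, and Bsn, Cplx2, Nsf, Pclo and Syt2 were not called. The other calls lost stand with the class comparison. With vector labels weighted equally Cplx2 was not called, and Napb and Syn2 were. Centring on the median of all genes, a shift of -0.13, gave 11 and 10 calls, beside 8.45% and 7.83% of all tested genes. Rab3a was then not called, and Rims2 and Rims3 were. Leaving out AiE0391h was chosen after seeing the data. The other 138 recomputed summary values stayed within 1.5 times or 1 SD, and of the values of single members 151 moved further and 4601 did not. Depth limits rare members: 9 members were read in under 10% of the nuclei of the 2 classes before and after thinning, and a share of 0 there does not show absence. The causes of these moves were not tested.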

Other observations

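The 50 nuclei with reads of both Slc17a7 and the Gad genes at the limit lay between the classes in the members furthest apart. Their mean level was 2.0 ± 3.35 for Sv2b, 2.31 ± 3.67 for Stx1a, 3.85 ± 3.83 for Syt7, 3.62 ± 4.22 for Rab3b and 4.16 ± 4.26 for Cplx1. Snap25 and Syt1 were read in 100% of them, and the median number of members read was 20, against 19 in each class.

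The 36 nuclei that met neither limit differed by library prefix. In prefix A, 16 of 16 had reads of Snap25 and 15 of 16 of Syt1. In prefix B, 3 of 16 had reads of each, and the median number of members read was 4.5. The astrocyte genes Slc1a3, Gja1, Aqp4, Aldh1l1 and Gfap were read in 13, 12, 8, 8 and 3 of these 16.

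The 185 glutamatergic nuclei without a subclass marker had levels of 5.06 ± 4.20 for Sv2b, 4.80 ± 3.92 for Stx1a and 0.59 ± 2.02 for Rab3b. They are among the 385 nuclei behind the class means of 5.17, 5.14 and 0.76, so closeness to those means is partly built in.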
